A study of Homo sapiens with 36 samples.

Results

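RNA-seq of MCF-10A ER-Src cells kept in ethanol was used to ask what the loss of STAT3 messenger RNA does to a mammary epithelial cell line while its Src oncoprotein is switched off. The comparison rested on 4 of the 36 libraries of the series, 2 from cells given siRNA against STAT3 (STAT3i) and 2 from cells given control siRNA (Ctrli), and they were chosen by their titles. MCF-10A is an immortal, untransformed human mammary epithelial line, and its ER-Src derivative holds v-Src joined to the part of the estrogen receptor that binds hormone, a kinase that tamoxifen (TAM) turns on. All libraries used here came from this line and so carried the fusion gene. Those in ethanol (ETH), the solvent, are labelled non-transformed. The cells grew without phenol red in charcoal-stripped serum with EGF, hydrocortisone, cholera toxin and insulin. Transfection was done the day before the cells were split and treated. The study's methods name a short and a day-long treatment without saying which applies to these RNAs. The labels name the inhibitor AZD0530 beside tamoxifen as an agent used for transformation. Under both treatments, siRNA against YAP (YAPi), TAZ (TAZi) and JUNB (JUNBi) had been used as well, which makes 20 ER-Src libraries in 10 groups of 2. Nothing states that the libraries of a group came from separate cultures, so the p-values measure the spread between these libraries, which may be technical.

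STAT3 is a latent transcription factor. Cytokines of the IL-6 family bind receptors that share the gp130 chain encoded by IL6ST, Janus kinases then phosphorylate STAT3, and dimers of it enter the nucleus and bind DNA. SOCS3, one of its targets, closes a negative loop. In the liver STAT3 drives the acute phase response, and in the mammary gland it is best known for its part in involution after weaning.

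The 4 libraries held between 10848740 and 14705253 expected counts each, and between 14266 and 14676 genes had at least 10. The basal keratin KRT5 had a mean of 1802 TPM, RSEM's length-scaled level, in Ctrli and 1635 in STAT3i, and KRT14, its partner, had 137 and 107. Of the fibroblast markers, COL1A2 and PDGFRA were at 0 in all 4 libraries, although decorin (DCN) was read at 59.4 and 38.3 TPM. The lymphocyte genes CD3E and MS4A1 were at 0, as was the endothelial cadherin CDH5, the only 1 of 6 endothelial markers at 0. Those 6 summed to 1.28 and 0.83 TPM in Ctrli and to 1.21 and 0.7 in STAT3i. Of 8 luminal markers 2 were at 0, among them the progesterone receptor gene PGR. The 8 summed to 329 and 274 TPM in Ctrli and to 323 and 424 in STAT3i. ESR1 counts may include reads of the fusion gene, which was not tested. RSEM's effective lengths were shorter than the gene lengths by 49.49 bases in both Ctrli libraries and by 49.0 bases in both STAT3i libraries, and the JUNBi libraries shared the STAT3i value. A difference in read length or processing between the groups therefore cannot be told apart from the siRNA.

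STAT3 itself (chr17:42313324-42388540, minus strand, GRCh38) was read at 1999 and 1943 normalized counts in the Ctrli libraries and at 533 and 539 in the STAT3i libraries. The normalized count is the expected count divided by the library's size factor. The STAT3i libraries held 27.2% of the Ctrli level, a log2 fold change of -1.88 (standard error, SE, 0.17, DESeq2 adjusted p = 6.8e-23), and differed from each other by less than the Ctrli libraries did. Per length, this was 6.62 ± 0.177 TPM against 20.8 ± 2.97 TPM (SD, n = 2 each). The other siRNAs under ethanol left STAT3 at log2 fold changes of -0.03, 0.28 and 0.25 over Ctrli. The 2 knockdown libraries, which differed at many other genes, were thus alike in the amount of STAT3 left. With edgeR's quasi-likelihood test the adjusted p of STAT3 was 0.0238, above the threshold of 0.01 used throughout.

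At that threshold DESeq2 called 37 of 18444 genes tested, 0.201%, of which 7 were higher (0.038%) and 30 lower (0.163%) after STAT3 knockdown. Only 7 were ordinary protein-coding genes: STAT3, S100A9, C1R, CFB, IFITM3 and FAM166A were lower, and CD24 was higher. The others were 16 copies of the 5S ribosomal RNA gene with identical values, 3 genes of the 7SL RNA, 3 processed pseudogenes, 3 read-through loci and 5 genes at 0 in a whole group. With edgeR no gene passed, while 1065 had an unadjusted p under 0.05, against 613 with DESeq2.

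The upstream sequences of the 4 coding genes that fell, STAT3 and FAM166A aside, are shown because STAT3 acts by binding DNA. Each is the 250 bases before the RefSeq start of the gene in GRCh38.p14, 5′ to 3′ on the gene's own strand, with matches in capitals to TTCNNNGAA, the consensus of STAT dimers, or to the core of the interferon-stimulated response element, searched as 2 GAAA runs with any 2 bases between them (both strands searched for both).
S100A9, chr1:153357604-153357853, plus strand: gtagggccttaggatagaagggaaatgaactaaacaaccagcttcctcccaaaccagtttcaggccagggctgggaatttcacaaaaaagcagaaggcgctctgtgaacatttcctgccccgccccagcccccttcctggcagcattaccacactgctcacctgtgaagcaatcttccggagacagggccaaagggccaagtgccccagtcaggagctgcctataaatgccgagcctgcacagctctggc
C1R, chr12:7092446-7092695, minus strand: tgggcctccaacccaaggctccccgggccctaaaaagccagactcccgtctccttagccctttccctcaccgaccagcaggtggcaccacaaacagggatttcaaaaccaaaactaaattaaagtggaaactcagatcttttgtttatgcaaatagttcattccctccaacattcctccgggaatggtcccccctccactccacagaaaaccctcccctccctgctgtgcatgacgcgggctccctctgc
CFB, chr6:31945845-31946094, plus strand: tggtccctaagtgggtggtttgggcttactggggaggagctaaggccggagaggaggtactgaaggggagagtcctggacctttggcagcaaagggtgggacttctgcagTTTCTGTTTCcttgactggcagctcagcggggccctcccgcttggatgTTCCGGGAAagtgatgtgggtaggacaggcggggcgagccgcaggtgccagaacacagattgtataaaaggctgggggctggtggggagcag
IFITM3, chr11:320861-321110, minus strand: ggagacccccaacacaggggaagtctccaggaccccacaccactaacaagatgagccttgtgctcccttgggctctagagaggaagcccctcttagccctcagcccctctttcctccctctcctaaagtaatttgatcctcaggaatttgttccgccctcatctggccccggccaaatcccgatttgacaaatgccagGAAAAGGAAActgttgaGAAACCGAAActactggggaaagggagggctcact
CFB held 1 TTCNNNGAA match, which begins 92 bases before the start, and 1 match to the interferon element on the opposite strand. IFITM3 held 2 matches to the interferon element. S100A9 and C1R held neither in these windows. Of all 35116 RefSeq windows of this length, 6.57% held TTCNNNGAA and 3.02% held the interferon element, so the matches are a description of the letters only.

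**Figure D1:**
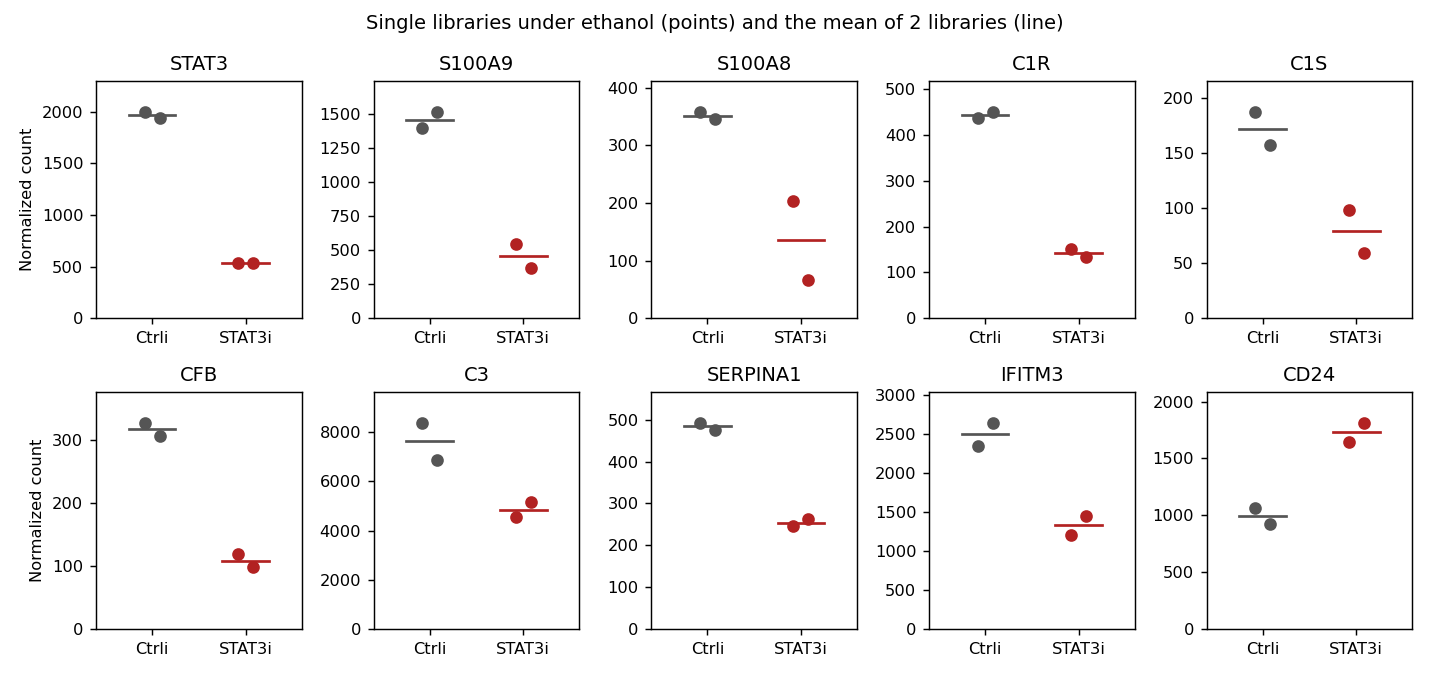
Normalized counts (vertical axis, from 0, a scale of its own for each gene) of 10 genes in the 2 Ctrli and the 2 STAT3i libraries under ethanol, with each library as a point and the mean of 2 as a line. In all 10 panels the groups are apart, with STAT3i lower in 9 and higher for CD24, and the STAT3i points lie far apart for S100A8 (204 and 66.7) and close together for STAT3 (533 and 539).

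S100A9 (chr1:153357854-153361023), which pairs with S100A8 to form calprotectin, a calcium-binding antimicrobial protein, fell. It was read at 1402 and 1518 normalized counts in Ctrli and at 548 and 368 in STAT3i, a log2 fold change of -1.67 (SE 0.22, adjusted p = 3.3e-10). Both knockdown libraries were low, and library 2 was the lower. S100A8, its partner gene, stood at 358 and 345 in Ctrli and at 204 and 66.7 in STAT3i, and did not pass (log2 -1.37, adjusted p = 0.162). The knockdown libraries thus ordered the same way for both calprotectin genes, with a wider gap for S100A8.

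C1R (chr12:7080214-7092540) encodes the protease that starts the classical complement cascade within the C1 complex. Its normalized counts were 437 and 450 in Ctrli against 151 and 133 in STAT3i (log2 -1.64, SE 0.26, adjusted p = 8.8e-07). The gap between the groups was many times the gap within either. C1RL, a related gene that overlaps it on the same strand, was read at 271 and 256 against 151 and 158, and the sum over both genes had a log2 ratio of -1.25.

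CFB (chr6:31945650-31952086), factor B of the alternative complement pathway, was read at 327 and 306 in Ctrli and at 119 and 97.5 in STAT3i (log2 -1.54, SE 0.29, adjusted p = 0.00026). It overlaps C2, which held at most 3.03 normalized counts, so few reads were assigned to C2. A further coding entry overlaps CFB on the same strand, ENSG00000244255, and whether reads were shared with it was not tested. For CFB too both knockdown libraries were low, with a mean at 34.2% of the control mean.

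IFITM3 (chr11:319676-329475), an interferon-induced membrane protein that restricts virus entry, was read at 2342 and 2644 in Ctrli and at 1208 and 1451 in STAT3i (log2 -0.91, SE 0.18, adjusted p = 0.00058). Its neighbours IFITM1 and IFITM2 are close in sequence, so reads may have been divided among them. They were at 257 and 261 against 133 and 133, and at 1226 and 1385 against 616 and 856, neither of which passed (adjusted p = 0.23 and 0.0325). The 3 genes summed gave a log2 ratio of -0.88, close to that of IFITM3 alone. Over the 28 measured members of the list of other interferon-stimulated genes, which held no IFITM gene, the median log2 fold change was 0.09 and none was called, beside 0.201% of all genes.

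CD24 (chr6:106969831-106975627), a small surface glycoprotein used to tell mammary cell states apart, was the ordinary coding gene that rose. It was read at 1063 and 919 normalized counts in Ctrli and at 1644 and 1814 in STAT3i (log2 0.80, SE 0.18, adjusted p = 0.00626). The groups did not overlap, but the call was lost under 9 of 13 alternative settings, among them leaving out either Ctrli library (adjusted p = 1 each).

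The calls also hung on single control libraries for other genes. Without Ctrli library 1 the count of called genes was 6 and without library 2 it was 4, whereas it was 121 without STAT3i library 1 and 87 without STAT3i library 2. STAT3 passed in all 4 of these fits. S100A9 passed in 3 and reached an adjusted p of 0.0455 without Ctrli library 2. C1R, CFB and IFITM3 did not pass without either Ctrli library, with adjusted p between 0.218 and 1, while their log2 fold changes stayed at -1.61 or below, -1.49 or below and -0.78 or below over all settings that gave an adjusted p.

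The remaining calls were mostly in genes whose reads can be shared with a copy or an overlapping gene, and here the values of the sum differed from those of the gene. NME2 (chr17:51165435-51171744) was read at 1816 and 2894 in Ctrli and at 4511 and 5521 in STAT3i (log2 1.09, adjusted p = 0.00074). The read-through entry NME1-NME2 over the same exons went the other way, from 4363 and 3517 to 1778 and 566, and the locus summed gave a log2 ratio of 0.06. RN7SL1 was called lower (log2 -0.81) and RN7SL2 higher (log2 0.71), 2 near-identical genes of the signal recognition particle RNA whose sum had a log2 ratio of -0.15. The read-through loci UBE2F-SCLY (149 and 104 against 19.5 and 31.5) and RNF103-CHMP3 (130 and 131 against 28.5 and 29.5) were called lower, with log2 ratios of 0.14 and 0.10 for the summed loci. FAM166A was read at 66.0 and 169 against 19.0 and 15.0. It overlaps the abundant tubulin gene TUBB4B on the opposite strand, and the sum of both had a log2 ratio of 0.02. For FAM166A, UBE2F-SCLY and RNF103-CHMP3 the sum could show little of a loss of the entry itself. In Ctrli, TUBB4B alone held 9015 and 8763, UBE2F 634 and 618, and CHMP3 845 and 806. Whether reads were shared was not tested.

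The 16 identical 5S entries were each read at 342 and 493 normalized counts in Ctrli and at 200 and 105 in STAT3i (log2 -1.45). RN7SL507P, a pseudogene of 7SL RNA, was at 266 and 233 against 84.8 and 105. Of the processed pseudogenes, ENSG00000244313 was at 604 and 823 against 246 and 261, ENSG00000185641 was called higher at 905 and 831 against 1617 and 1402, and EIF4HP1 was at 49.6 and 65.2 against 0 and 4.96. ENSG00000280653.1 was at 139 and 156 in Ctrli and at 0 in STAT3i, at least 52.7-fold lower when 3 counts a library are taken as the floor, and ENSG00000272741 was at 40.8 and 44.4 against 0, at least 15.2-fold lower. ENSG00000258232, U2 and ENSG00000269968 were read only in STAT3i library 2, at 2000, 3389 and 4707 normalized counts, and were at 0 in the other 3 libraries.

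Several of these entries set the Ctrli libraries apart from every other siRNA. ENSG00000280653.1 held 138 and 137 expected counts in Ctrli and at most 29.3 in the 8 ethanol libraries of the 4 targeted siRNAs. NME2 had log2 fold changes of 1.04, 1.08 and 1.09 after YAPi, TAZi and JUNBi, beside its 1.09 after STAT3i. ENSG00000244313 had -1.45, -0.96 and -1.78, FAM166A had -2.94, -2.74 and -3.67, and the 5S entries had -4.58, -2.10 and -3.82. All these comparisons share the 2 Ctrli libraries, so these values are not independent of each other.

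The genes of the pathway itself did not pass the test beyond STAT3. Among the ligands, LIF was read at 125 and 71.4 in Ctrli against 77.9 and 145 in STAT3i, with the groups overlapping. CLCF1, CNTF and IL24 were read at between 12.6 and 34.9 normalized counts, IL11 and CTF1 below 10, and IL6, OSM, IL10, IL22 and LEP were at 0 in all 4 libraries. IL6ST, the shared gp130 receptor chain, was at 2324 and 2075 against 2587 and 2470 (log2 0.20, SE 0.16). OSMR, the oncostatin M chain, was at 710 and 612 against 638 and 629, and LIFR was at 225 and 263 against 318 and 208. Of the other receptor genes, IL6R, IL11RA, LEPR, IL10RB, IL22RA1, IL20RA, IL20RB and EGFR had log2 fold changes between -0.45 and 0.30, and CNTFR and IL10RA were at 0.

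JAK1, the kinase bound to gp130, was read at 1336 and 1332 against 1352 and 1287 (log2 -0.02). JAK2 stood at 105 and 144 against 174 and 140, TYK2 at 1047 and 1099 against 738 and 1022, and JAK3 was nearly silent at 3.40 or less. SOCS3, the feedback inhibitor, was low in every ethanol library, at 63.5 and 65.7 in Ctrli and at 26.0 and 38 in STAT3i, and did not pass (log2 -1.02, SE 0.54, unadjusted p = 0.0604). CISH, another SOCS family member, was at 23.2 and 18.1 against 8.38 and 17.5, SOCS2 at 288 and 248 against 322 and 340, and SOCS1 at 3.40 or less. The PIAS genes (PIAS1, PIAS2, PIAS3 and PIAS4) and the phosphatases PTPN1, PTPN2, PTPN6 and PTPN11 had log2 fold changes between -0.42 and 0.29. Of the other STAT genes, STAT2 was at 527 and 547 against 454 and 368 and STAT6 at 1714 and 1687 against 1262 and 1473, while STAT4, STAT5A and STAT5B lay between log2 -0.11 and 0.04.

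Genes of the acute phase and complement, secreted proteins of innate defence, were lower as a list. Of 24 listed, 8 had a mean of at least 10 normalized counts, and in all 8 both STAT3i libraries lay below both Ctrli libraries, against 19.2% of the 14392 genes with such a mean. All 8 had an unadjusted p under 0.05 on the lower side, against 1.92% of those genes, and 2 of them, C1R and CFB, passed the adjusted threshold. Neither of these 2 passed when either Ctrli library was left out, and neither had an adjusted p without STAT3i library 2. The median log2 fold change of the 8 was -1.02 and they ranged from -1.64 to -0.54, beside a median of 0.02 over all genes. When 1 library was left out, the median of the 8 lay between -1.21 and -0.76. Taken alone, STAT3i library 1 had a median of -0.77 over these genes and library 2 one of -1.20. The 8 are those that reached a mean of 10, and the rest of the list was read below that, with 4 at 0.

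Single members showed the same order with different gaps. C1S, the second protease of the C1 complex, was at 187 and 157 in Ctrli against 98 and 59.5 in STAT3i (log2 -1.12, adjusted p = 0.554). C3, the central complement protein, was at 8391 and 6859 against 4549 and 5152 (log2 -0.65, adjusted p = 0.0351). SERPINA1, alpha-1-antitrypsin, was at 493 and 476 against 246 and 262, with the libraries of each group close together (log2 -0.93, adjusted p = 0.0276). SERPINA3, alpha-1-antichymotrypsin, was at 358 and 387 against 229 and 88.1, so that library 2 was far below library 1 (log2 -1.23, adjusted p = 0.212). The serum amyloid genes SAA1 (5797 and 4264 against 4032 and 2879) and SAA2 (1404 and 918 against 761 and 626) had wide gaps within Ctrli as well, with log2 fold changes of -0.54 and -0.74 and adjusted p of 0.917 and 0.308.

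The 24 measured textbook STAT3 targets had a median of -0.09 and none was called. In 9 both STAT3i libraries lay below both Ctrli libraries, beside 19.2% of all genes, and in 4 both lay above, beside 22.6%. FOS (249 and 286 against 179 and 152), BCL6 (249 and 324 against 192 and 168), ICAM1 (417 and 392 against 254 and 285) and TIMP1 (3620 and 4237 against 2861 and 3265) had an unadjusted p under 0.05 on the lower side, 4 of 24 beside 1.92% of all genes, and no member had one on the higher side. Without STAT3i library 2 the median was -0.34, more than the spread between replicates from the value with both. CCND1, cyclin D1, was at 1513 and 1493 in Ctrli against 1529 and 2349, so that its higher mean came from library 2.

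**Figure D2:**
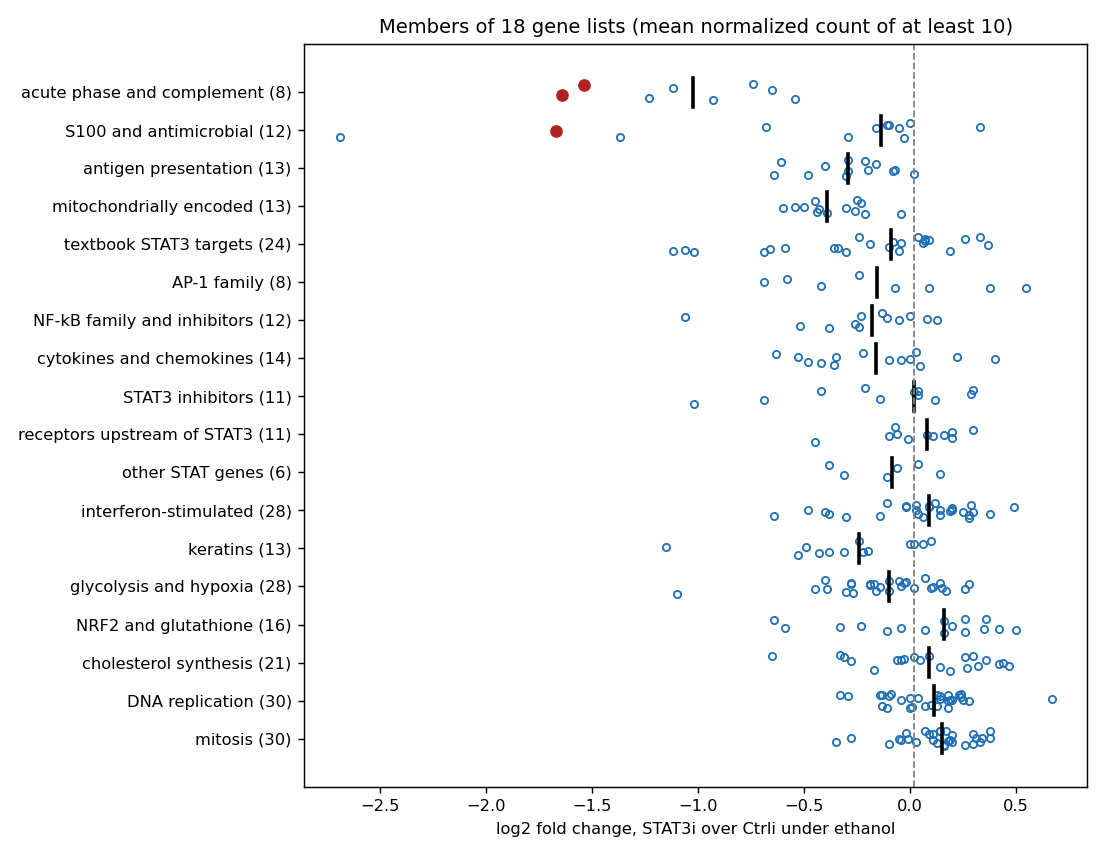
log2 fold change of STAT3i over Ctrli under ethanol (horizontal axis) for the members of 18 gene lists with a mean of at least 10 normalized counts, 1 row a list with the number of members in brackets. Each ring is a gene, filled circles passed the adjusted threshold, short bars are list medians and the dashed line is the median of all genes, 0.02. All 8 acute phase and complement genes lie left of -0.5, with a median of -1.02, while the median of every other list shown is between -0.39 and 0.16.

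The 13 antigen presentation genes had a median of -0.29, and 8 of them were lower in both libraries, beside 19.2% of all genes, with none called. HLA-B was at 1275 and 1591 against 883 and 958 (log2 -0.64, adjusted p = 0.205), and TAPBP, which loads peptides on class I molecules, was at 346 and 370 against 191 and 279. The 13 mitochondrially encoded genes had a median of -0.39, with 8 lower in both libraries, beside 19.2% of all genes. Of these 8, 5 had an unadjusted p under 0.05, beside 1.92% of all genes, and none was called. MT-CO2 was at 5932 and 5887 against 4246 and 3864 (log2 -0.54, adjusted p = 0.0995). That list differed between the knockdown libraries, with a median of -0.11 in library 1 and -0.74 in library 2, and the share of counts on these genes was 0.42% and 0.393% in Ctrli and 0.348% and 0.3% in STAT3i.

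Among the 12 measured S100 and antimicrobial genes S100A9 was the member that passed, and the median was -0.14. S100A7, psoriasin, was read at 23.2 and 21.5 in Ctrli and at 6.70 and 0 in STAT3i, and PI3, elafin, at 240 and 223 against 174 and 115 (log2 -0.68). The 14 cytokines and chemokines had a median of -0.16, the 12 NF-kB genes one of -0.18 and the 8 AP-1 genes one of -0.15, with no call in any of these lists. CSF1, the macrophage growth factor, was at 271 and 314 against 164 and 215 (log2 -0.63). JUN was at 261 and 325 in Ctrli against 254 and 605 in STAT3i, so that library 2 stood apart. The 13 keratins had a median of -0.24, and KRT14 was at 4957 and 6333 against 3718 and 4113 (log2 -0.53, adjusted p = 0.414). The immune list held 2 measured genes, CD14 (265 and 279 against 166 and 185) and CD68, and its summed level was 12.4 and 10.3 TPM in Ctrli and 8.05 and 9.74 in STAT3i, with 3 of 8 markers at 0. In bulk RNA, fewer cells of a type and less RNA per cell cannot be told apart.

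Lists on growth and metabolism lay near the median of all genes, with no call in any of them. DNA replication genes had a median of 0.11 over 30 members and mitosis genes one of 0.15 over 30. The 24 p53 targets had a median of 0.05, the 25 YAP and TAZ targets one of 0.05, the 21 cholesterol synthesis genes one of 0.09, the 16 NRF2 and glutathione genes one of 0.16 and the 28 glycolysis and hypoxia genes one of -0.10. CCNA2, the S phase cyclin, was at 2315 and 2089 in Ctrli against 2987 and 2734 (log2 0.38), while MKI67, another gene of dividing cells, was at 4974 and 4499 against 4000 and 3449 (log2 -0.35). Neither passed.

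Under tamoxifen the same siRNA was read in 4 other libraries, and 1170 of 14470 genes tested were called there, 8.09%, with 476 higher (3.29%) and 694 lower (4.8%). Those libraries share none with the ethanol comparison. Their effective lengths were again shorter than the gene lengths by 49.49 bases in Ctrli and 49.0 in STAT3i. A difference in read length or processing common to both treatments therefore cannot be told apart from the siRNA here. Of the 694 genes called lower under tamoxifen, 630 had a mean of at least 10 under ethanol, and in 303 of these (48.1%) both STAT3i libraries under ethanol lay below both Ctrli libraries, beside 19.2% of all genes, while in 33 (5.24%) both lay above. Of the 476 called higher, 475 could be read, and 252 of them (53.1%) were above in both, beside 22.6% of all genes. The sizes were smaller under ethanol: the median log2 fold change was -0.25 for the first set, which had -1.08 under tamoxifen, and 0.23 for the other set, which had 0.79. Single libraries gave medians of -0.43 and -0.12 for the first set and of 0.31 and 0.13 for the other, so library 1 carried more of both. The genes called in both and in the same direction numbered 23 lower and 1 higher, which was CD24. Of the 23, 16 were the identical 5S entries, and the others were STAT3, S100A9, C1R, CFB, IFITM3, RN7SL507P and the pseudogene ENSG00000244313.

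**Figure D3:**
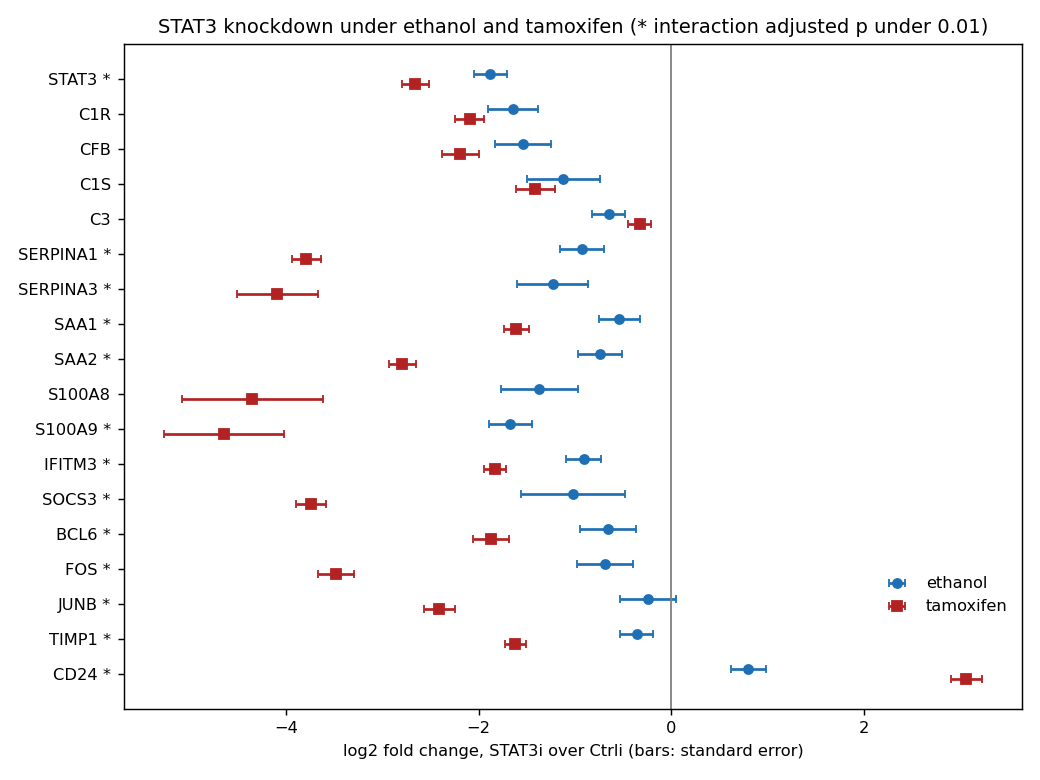
log2 fold change of STAT3i over Ctrli (horizontal axis) for 18 genes under ethanol (circles) and under tamoxifen (squares), with bars of 1 standard error and 2 libraries a group. A star after a name marks an adjusted p under 0.01 for the difference between the treatments. Except for C3 (-0.65 and -0.33), the tamoxifen value lies farther from 0 for each gene, as for SERPINA1 (-0.93 and -3.79) and CD24 (0.80 and 3.06).

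The difference between the treatments was tested with an interaction term, and 222 of 15885 genes passed, 1.4%, of which 151 (0.951%) had the more negative change under tamoxifen. The count was 119 and 134 without Ctrli library 1 or 2 under tamoxifen, 147 without Ctrli library 2 under ethanol and 397 without STAT3i library 1 under ethanol. SERPINA1 differed by -2.87 (adjusted p = 4.6e-32), with -0.93 under ethanol and -3.79 under tamoxifen. Its level was 15.4 TPM in Ctrli and 8.12 in STAT3i under ethanol, and 183 and 17.8 under tamoxifen. S100A9 had 99.9 and 35.5 TPM under ethanol and 3200 and 158 under tamoxifen, with an interaction of -2.99 (adjusted p = 0.00114). SOCS3 had 0.96 and 0.495 TPM under ethanol and 41.7 and 3.84 under tamoxifen, with an interaction of -2.73. SERPINA3, SAA1 and SAA2 of the acute phase list also passed, which made 4 of its 8 measured members. The count was 1 with edgeR, 2 with edgeR and the replicate block, and 3 with TMM scaling or with offsets for effective length. It stayed at 4 with DESeq2 and that block. The count also fell in several fits without 1 library. In such fits the list's median interaction lay between -1.08 and -0.66, beside -0.88 with all libraries.

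The complement genes gave another picture. C1R had an interaction of -0.47 (adjusted p = 0.752), CFB one of -0.67 (adjusted p = 0.569), C1S one of -0.32 and C3 one of 0.31 (adjusted p = 1 each), and none passed. C1R was at 7.97 and 2.75 TPM under ethanol and at 41.9 and 12.4 under tamoxifen, and its log2 fold changes were -1.64 and -2.09. CFB was at 11 and 3.85 TPM and then at 40.6 and 10.9, with -1.54 and -2.19. With 2 libraries a group these estimates do not show that the effects are alike in size. CD24 differed in the positive direction, by 2.24 (adjusted p = 7.4e-19), from 30.3 and 54.8 TPM under ethanol to 11.4 and 115 under tamoxifen. STAT3 itself differed by -0.80 (adjusted p = 0.00704), and its level in Ctrli was 20.8 TPM under ethanol and 39.0 under tamoxifen while that in STAT3i was 6.62 and 8.23.

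Of the textbook targets, 8 of 24 had a more negative change under tamoxifen, beside 0.951% of all genes, and none a more positive one. The count was 4 with edgeR and 11 with the replicate block, and the median of that list was -1.09 under tamoxifen beside -0.09 under ethanol. FOS, at 7.80 and 4.92 TPM under ethanol, was at 33.1 and 4.14 under tamoxifen, an interaction of -2.82. BCL6 was at 4.54 and 3.01 TPM and then at 13.4 and 4.63, an interaction of -1.23. The genes with the most negative interactions and at least 100 normalized counts were ENSG00000269968, ENSG00000258232, ADAMTS4, TNC and IL24, and the most positive were H4C12, ENSG00000262660, CDKN1C, ENSG00000263900.1 and TIMP3. ADAMTS4 was nearly silent under ethanol, at 2.02 and 2.27 normalized counts against 2.51 and 1.03. TNC, the matrix protein tenascin C, was read at only 27.2 and 40.8 normalized counts against 40.2 and 47.2 under ethanol. TIMP3, an inhibitor of matrix proteases, was at 506 and 536 against 561 and 691. The first 2 entries of the negative end rest on STAT3i library 2 under ethanol, described above.

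The other knockdowns under ethanol gave a reference that uses no Ctrli library. Effective lengths were shorter than gene lengths by 49.47 to 49.49 bases in YAPi and TAZi, and by 49.0 in JUNBi and STAT3i. Between STAT3i and those from YAPi and TAZi, a difference in read length or processing therefore cannot be told apart from the siRNA. STAT3i was set against the mean of YAPi, TAZi and JUNBi, and 892 of 14327 genes were called, 6.23%, of which 463 (3.23%) were higher and 429 (2.99%) lower in STAT3i. The count was 165 without STAT3i library 1, 421 without STAT3i library 2, 515 without YAPi library 2, 479 without TAZi library 2 and 1789 without JUNBi library 1, and 5 with edgeR. STAT3 had a log2 difference of -2.04 (SE 0.13, adjusted p = 1.1e-48), S100A9 one of -2.32, C1R one of -2.05 and CFB one of -1.85, all past the threshold. IFITM3 did not pass (-0.63, adjusted p = 0.0196). CD24, higher in STAT3i than in Ctrli, was lower here (-0.98, adjusted p = 1.2e-07). Its log2 fold change over Ctrli was 2.33 after YAPi, 2.22 after JUNBi and 0.79 after TAZi, beside the 0.80 after STAT3i. CD24 was thus above Ctrli after every targeted siRNA, in fits that share the Ctrli libraries.

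Of the 8 acute phase and complement genes, 7 were called lower than in the other knockdowns, beside 2.99% of all genes, with a median of -1.48. With edgeR 1 of them was called, with a median of -1.51. C1S had -2.19 (SE 0.24), C3 -1.56 (SE 0.17), SAA2 -1.41 (SE 0.20) and SAA1 -0.87 (SE 0.19), while SERPINA1 had -0.41 and did not pass (adjusted p = 0.195). These differences hold the other siRNAs' own changes. Over Ctrli, the list's median was -0.49 after YAPi, 0.45 after TAZi and 1.38 after JUNBi. JUNBi in particular was higher for SAA2 (2.17), SERPINA3 (1.53), SAA1 (1.48) and C1S (1.46), each with an adjusted p under 0.01, whereas S100A9 was lower after JUNBi (-1.63) as it was after STAT3i (-1.67). YAPi went the other way for S100A9 (2.84) and the same way for C1R (-1.09).

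**Figure D4:**
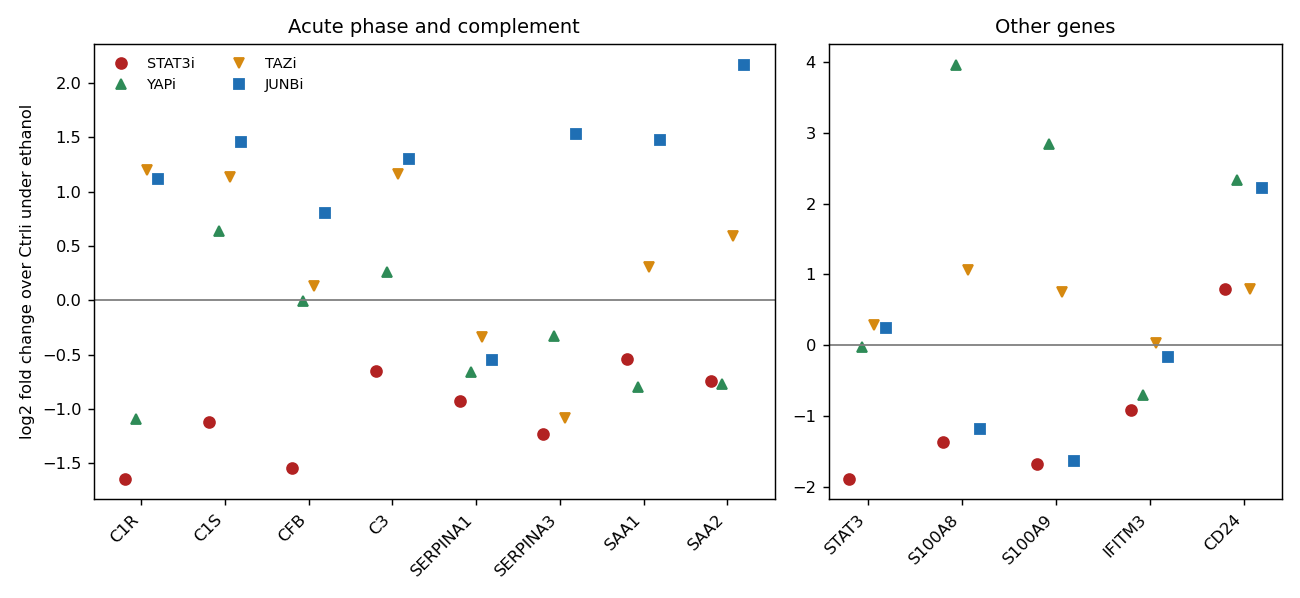
log2 fold change over Ctrli under ethanol (vertical axis) after STAT3i, YAPi, TAZi and JUNBi for the 8 acute phase and complement genes (left) and 5 other genes (right, with a wider axis). Each point is a fit of 2 libraries against the same 2 Ctrli libraries. STAT3i is below 0 for all 8 genes on the left, whereas JUNBi is above 0 for 7 of them.

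Genes of cell division stood higher in STAT3i than in the other knockdowns. Of 30 mitosis genes 23 were called higher, with a median of 0.90, and of 30 DNA replication genes 15 were, with a median of 0.63, beside 3.23% of all genes. TTK, a spindle checkpoint kinase, had a difference of 1.14 (SE 0.25) and MCM6, a subunit of the replicative helicase, one of 0.99 (SE 0.22). Over Ctrli, the mitosis list had medians of -0.77, -0.63 and -0.87 after YAPi, TAZi and JUNBi and of 0.15 after STAT3i. The counts depend on the libraries: without STAT3i library 1 no gene of either list passed, with medians of 0.78 and 0.64. Without STAT3i library 2, 15 mitosis and 3 replication genes passed, and the replication count was 8 without YAPi library 2 and 6 without TAZi library 2. edgeR called none of them, with medians of 0.88 and 0.60, while the replicate block gave 30 and 22 with DESeq2 and 26 and 16 with edgeR.

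Among the called genes with at least 100 normalized counts, the lowest in STAT3i beside the other knockdowns were ENSG00000280628.1 (-7.64), KRT6C (-3.41), AQP3 (-3.18), LINC01127 (-2.68) and S100A8 (-2.65). ENSG00000280628.1 was at 0 in both STAT3i libraries, so its estimate is no measure of size. AQP3 is a water and glycerol channel and KRT6C a keratin of stressed epithelia. Both had few counts in the Ctrli and STAT3i libraries. KRT6C was at 23.3 and 15.2 normalized counts against 11.3 and 6.1, and AQP3 at 12.1 and 27.2 against 17.6 and 7.19. They reached a mean of 100 through the other knockdowns, with log2 fold changes over Ctrli of 4.16 and 4.3 after YAPi. LINC01127 had 2.4, 2.74 and 1.68 after YAPi, TAZi and JUNBi, beside -0.4 after STAT3i. These differences thus hold the other siRNAs' own rises. At the other end were U2 (15.65) and a set of identical 5.8S ribosomal RNA entries, RNA5-8SN1, RNA5-8SN2, 5_8S_rRNA and ENSG00000273730.1 (4.39 each). U2 was at 0 in all YAPi and TAZi libraries, at 0 and 1001 TPM in STAT3i and at 7005 and 8201 TPM in JUNBi, so its estimate is no measure of size and JUNBi held more of it than STAT3i. The 5.8S entries were each at 10839 and 4559 TPM in STAT3i, beside 10921 and 13068 in Ctrli and between 19.3 and 1719 after the other siRNAs.

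The 2 STAT3i libraries under ethanol differed from each other more than most pairs. Of 9794 genes with a mean of at least 100 normalized counts over the 4 libraries, 241 differed at least 2-fold between them, 80 higher in library 1 and 161 in library 2, whereas 28 did so between the Ctrli libraries. The SD of the log2 ratio across genes was 0.491 for this pair and 0.217 for Ctrli under ethanol. Of the 10 ER-Src pairs, JUNBi under ethanol had a larger value, 0.687, and the other 8 ranged from 0.217 to 0.301.

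**Figure D5:**
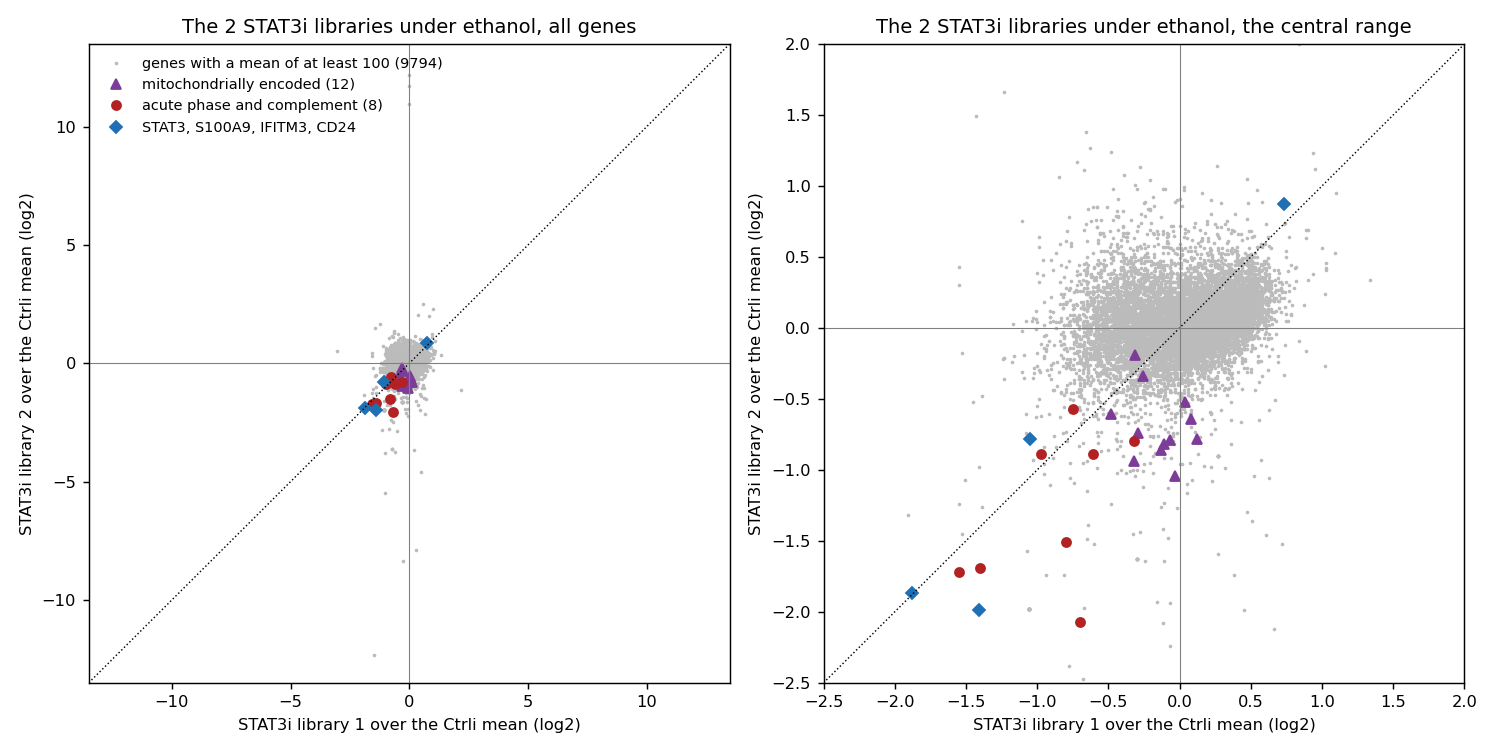
log2 ratio of each STAT3i library to the mean of the 2 Ctrli libraries under ethanol, library 1 on the horizontal and library 2 on the vertical axis, for 9794 genes with a mean of at least 100 normalized counts (pseudocount 1), over the full range on the left and the central range on the right. The dotted line marks equal values. STAT3 lies on that line at -1.88 and -1.87, while most mitochondrially encoded genes lie below it, with list medians of -0.11 and -0.74.

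By name, the genes highest in library 2 relative to library 1 were ENSG00000269968, U2 and ENSG00000258232, all at 0 in library 1, followed by RPLP0P9 (log2 ratio of library 1 to library 2 -3.60) and ENSG00000270066 (-2.93). The highest in library 1 were ENSG00000272196.2 (10.82), the read-through loci TGIF2-RAB5IF (8.15) and SENP3-EIF4A1 (4.45), ENSG00000258377 (8.06) and ENSG00000279483 (5.10). Coding genes without a coding overlap on the same strand, chosen after their values were seen, differed less. FEM1A (-1.91), HES4 (-1.89), PRR7 (-1.86), TMEM160 (-1.72), CHPF (-1.56) and MEX3D (-1.48) were higher in library 2, and HNRNPA1L3 (1.96), S100A8 (1.6), TXNIP (1.32), AKR1C3 (1.13), MT-ND3 (1.01) and RAP1A (0.94) were higher in library 1.

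Of transcription factor genes chosen after their values were seen, JUN was read at 254 and 605 normalized counts in STAT3i libraries 1 and 2, JUNB at 353 and 693, JUND at 160 and 436 and CEBPB at 392 and 912, whereas FOS was at 179 and 152. RMRP, the noncoding RNA of the enzyme ribonuclease MRP, was at 51431 and 185826, beside 139277 and 162943 in Ctrli. S100A9 had log2 ratios to the Ctrli mean of -1.41 and -1.99, C1R of -1.55 and -1.72, and CFB of -1.40 and -1.69. These genes were called on the same libraries, which favours genes low in both, so this is no separate check.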

How the data were processed

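Libraries were made from total RNA with the TruSeq Ribo Profile kit and sequenced. The authors trimmed reads, aligned them with STAR to the GENCODE v30 transcriptome (hg38) and estimated levels with RSEM. The versions of STAR and RSEM are not given in the sources used here. The deposited expected counts are RSEM's estimates, which divide reads that fit several genes among them, and the deposited TPM are scaled by the authors for length and library. Here, Ensembl genes only were kept (60725; other identifiers held at most 0.0646% of the 4 libraries' counts), and 93.1% were found in GENCODE v44 for names and coordinates. Expected counts were rounded and tested with DESeq2 1.42.0 (R 4.3.3; Wald test, default size factors and filtering, Benjamini-Hochberg adjusted p under 0.01), in a separate run of 2 against 2 libraries, in an interaction fit over 4 groups, and as STAT3i against the mean of 3 other knockdowns. edgeR 4.0.16 and the other alternatives are given in the closing section. The sequencing depth of 10848740 to 14705253 expected counts limits genes of few counts. The STAT3 siRNAs were a pool, whose sequences were not used here.

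The named genes were STAT3, every called gene, list members called or among the 3 largest changes with a mean of at least 100 normalized counts, all pathway genes, and 5 in each direction for the interaction, the other knockdowns and the STAT3i pair. The members and lists were chosen with earlier results of these data known. The tests were checked on simulated data. TPM were described, not tested. A few listed genes are not reported here. Promoter windows came from RefSeq, and 6 of the 7 called coding genes had one.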

Additional observations from a re-analysis of the deposited data

Results flagged for a closer look

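The effect of STAT3i over Ctrli differed between tamoxifen and ethanol by the DESeq2 interaction term for 30 genes named here, of the 222 that passed. Values are log2, tamoxifen minus ethanol, from 2 libraries a group, and no cause was tested.

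In the acute phase list the differences were -2.88 for SERPINA3, -2.87 for SERPINA1, -1.09 for SAA1 and -2.06 for SAA2. S100A9 differed by -2.99 and S100A14 by 0.87. Of the textbook targets, SOCS3 differed by -2.73, FOS by -2.82, JUNB by -2.19, PIM1 by -2.04, VEGFA by -1.8, TIMP1 by -1.28, BCL6 by -1.23 and HIF1A by -1.14. The oncostatin M receptor gene OSMR differed by -0.98 and IL20RB by 1.06. Of the genes called under ethanol, STAT3 differed by -0.8, IFITM3 by -0.94, NME2 by -1.03 and CD24 by 2.24.

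At the extremes, ADAMTS4 differed by -6.09, TNC by -4.78 and IL24 by -4.57 on the negative side. On the positive side were TIMP3 (2.62), CDKN1C (2.96), ENSG00000263900.1 (2.72), ENSG00000262660 (3.88) and H4C12 (11.29). ADAMTS4 was nearly silent under ethanol, at 2.02 and 2.27 normalized counts in Ctrli and at 2.51 and 1.03 in STAT3i. Its log2 fold change there had an SE of 2.42, so its difference is no measure of size. H4C12, a histone gene, was read under ethanol at 760 and 407 normalized counts in Ctrli and at 919 and 134 in STAT3i, and was at 0 in both Ctrli libraries under tamoxifen, so its estimate is no measure of size. ENSG00000269968 (-30.0) and ENSG00000258232 (-24.09) were at 0 in 3 of the 4 ethanol libraries, so their estimates are no measure of size.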

How the results depend on the processing

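The count of called genes under ethanol, 37, was 0 with edgeR, 17 with TMM scaling, 13 with offsets for effective length (30.8% of them higher, against 18.9%), 11 with the replicate block (8 shared with the 37), 0 with edgeR and the block, 10 over coding genes whose mean count reached 10, 62 at an adjusted p under 0.1 and 4 to 121 without 1 library. A lone library was assumed to vary like the others in those fits. Fits with edgeR and the block, or over coding genes, were chosen after seeing the data. STAT3 kept its direction in all 13 alternatives (-1.91 to -1.75) and its call in 11, but not with edgeR (-1.9, adjusted p = 0.0238) or edgeR with the block (-1.9, adjusted p = 0.0839). The 222 interaction calls were 56 with edgeR, 112 with edgeR and the block and 119 to 397 without 1 library. The 892 calls against the other knockdowns were 5 with edgeR, 2203 with the replicate block, 1596 with edgeR and the block, 2500 in a fit over all 10 groups and 165 to 1789 without 1 library. The labels do not say that replicate numbers pair the samples: over 10001 genes, deviations of the same number had r = 0.252 between Ctrli and STAT3i under ethanol, and those of STAT3i under ethanol had r = 0.338, 0.575 and 0.64 with YAPi, TAZi and JUNBi under ethanol and 0.612 with STAT3i under tamoxifen. The other genes refitted in this way under ethanol were called genes and some list members, not all genes named here. For none of those refitted did a setting turn the direction. The settings left the calls of these genes as they were in 331 cases, ended one in 126 and added one in 10.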
